A study of Mus musculus with 18 samples.

Results

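Hearts of mice gavaged with polystyrene (PS) particles of 1 µm were compared with hearts of mice gavaged with particles of 100 nm, to ask whether particle size made a difference to the heart's RNA when every mouse also received isoproterenol (ISO). The comparison used 12 of the 18 libraries of the series, chosen by their treatment label: 6 with ISO and 100 nm PS (B1 to B6) and 6 with ISO and 1 µm PS (C1 to C6). All were male wild-type C57BL/6 mice given ISO under the skin at 2.5 mg/kg/day and PS by gavage at 50 mg/kg/day, both for 21 days, so the dose of plastic was matched by mass, not by particle number. The 6 libraries with ISO and a water gavage were not used, and no heart without ISO is among the samples, so each difference below is between sizes on a background of ISO injury. The mass dose was the only dose, and the labels give no amount of particles in the heart. The labels assign mice to the library numbers, and each library was taken as 1 mouse. Batch 1, prepared by one provider, holds B1 to B5 and C1 to C4. Batch 2, from another provider, holds B6, C5 and C6.

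Isoproterenol is a beta-adrenergic agonist. Given for weeks it drives hypertrophy of the heart muscle, stress genes such as the natriuretic peptides, and fibrosis, in which activated fibroblasts lay down collagen and matrix glycoproteins. Polystyrene particles are taken up by endocytosis and phagocytosis and are not degraded in lysosomes, and smaller particles generally cross epithelia more readily than larger ones.

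Total counts ran from 17685487 to 22600570 per library. Levels below are in CPM, the count relative to the library total scaled to a fixed depth, which is corrected by the TMM factor of the library. Batch held 67.8% of the variance of log2 CPM, particle size 2.45% after batch (1 degree of freedom), and the libraries within groups the remaining 29.7% (9 degrees of freedom). On 9 measures the sizes did not differ beyond the spread of the libraries. These were total counts over the joined genes, genes detected, the shares of mitochondrial, haemoglobin and the 10 most abundant genes, and 3 principal components. The test was an exact permutation within batch (two-sided, 378 arrangements, p from 0.278 to 0.979, adjusted p at least 0.901). The 20 ventricular sarcomere genes summed to 59300 to 161000 CPM in the 12 libraries. The 13 mitochondrially encoded genes summed to more, 129000 to 311000 CPM. One library, B1, carried RNA of atrial and fat genes beside ventricular RNA, which is described at the end.

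No gene passed. Of 15149 genes tested with edgeR's quasi-likelihood test with batch as a covariate, 0 (0%) had an adjusted p under 0.05, and the smallest adjusted p was 0.999. At an unadjusted p under 0.05 there were 296 genes (1.95%), 135 of them higher with 1 µm and 161 higher with 100 nm. That share was below the 0.05 expected if no gene differed. DESeq2 and limma voom also called 0, with 344 and 640 genes at an unadjusted p under 0.05. The count of 296 depended on single libraries: it was 588 without B5, 521 without C1, 189 without C2 and 589 without C6.

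The data bound how large a difference between sizes could be. For 12808 of 15148 genes (84.6%) the 95% interval of the log2 fold change lay inside a 2-fold change in either direction, and for 9926 (65.5%) inside a 1.5-fold change. Among the 8862 genes with a mean of at least 10 CPM these shares were 98.7% and 90.2%. The median half-width of the interval was 0.33 on the log2 scale, and 0.25 at 10 CPM or more. Among the 6286 rarer genes, 64.6% had an interval inside a 2-fold change, and for the other 2223 a 2-fold difference was not bounded. Fold changes are given below as log2 of 1 µm over 100 nm, so a negative value means a lower level with the larger particle. Their median over all genes was 0.01, and 53.8% were above 0. Because nothing passed, every value that follows is a description with its error.

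**Figure D1:**
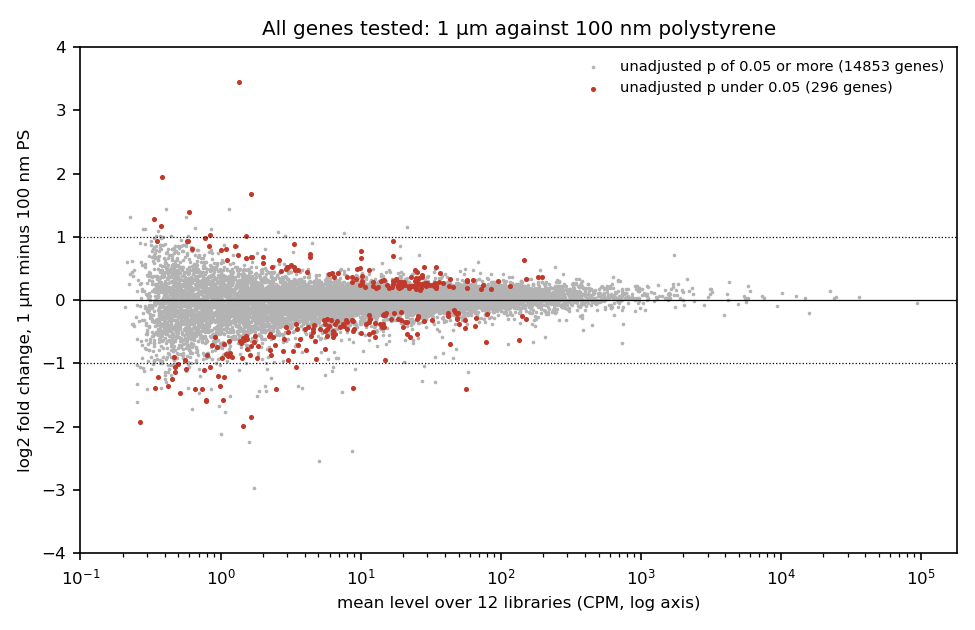
Log2 fold change (1 µm minus 100 nm PS) of each gene tested against its mean level over the 12 libraries in CPM, on a log axis, with dotted lines at a 2-fold change. The 296 genes with an unadjusted p under 0.05 (red) lie on both sides of 0 among the other genes (grey), and 4 genes fall outside the axes.

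Within batch 1, where the 5 libraries of 100 nm and 4 of 1 µm share a provider, 68 genes (0.449%) were higher in every 1 µm library than in any 100 nm library, and 62 genes (0.409%) lay the other way. Group labels dealt at random would give each direction in 1 of 126 arrangements, a larger share than either. In batch 2, 33 of the 68 and 29 of the 62 had the same sign. The difference between sizes was itself unequal in the 2 batches for 4 genes (0.0264%) by the batch-by-size term of edgeR, all of them pseudogene entries.

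The gene with the smallest p at 5 CPM or more was Gsta3, a glutathione S-transferase that conjugates electrophiles and is an NRF2 target. It ranged from 5.41 to 9.86 CPM with 100 nm (median 7.97) and from 5.48 to 20.1 CPM with 1 µm (median 10.8). C2, C3 and C4 at 13.3, 20.1 and 19.6 CPM stood above all other libraries, while C1, C5 and C6 lay among those of the 100 nm group. Its log2 fold change was 0.78 (SE 0.23, 95% interval 0.30 to 1.27, adjusted p = 0.999). The other NRF2 and antioxidant genes did not share this size of difference: over the 27 measured the median was 0.04, 0 passed, and Hmox1, haem oxygenase, had 0.11 (SE 0.14, interval -0.19 to 0.40).

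Cebpb, a transcription factor of acute-phase and stress-hormone responses, ran from 12.4 to 29.8 CPM with 100 nm (median 26.9) and from 25.6 to 40 CPM with 1 µm (median 33.9). Within batch 1 the groups touched, C3 at 29.0 CPM lying below B1, B2 and B5. Its log2 fold change was 0.52 (SE 0.18, interval 0.14 to 0.90) and was 0.30 without B6, the lowest library. Cxcl14, a chemokine made by stromal cells, was at 18.7 to 39.7 CPM (median 31.4) against 17.4 to 65.5 CPM (median 39.0). Its difference was 0.53 (SE 0.18), with C3 the highest library. Ppargc1b, a coactivator of mitochondrial genes, had a log2 fold change of 0.50 (SE 0.18), and Dcaf12, Zdhhc6 and Ublcp1 were higher in all 4 libraries of 1 µm than in the 5 of 100 nm in batch 1 but by no more than 0.29.

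On the other side stood Mfap2, a microfibril protein of elastic fibres. It ran from 5.05 to 11.6 CPM with 100 nm (median 7.54) and from 3.25 to 7.35 CPM with 1 µm (median 5.07). All 6 libraries of 1 µm lay below the 100 nm mean of their batch, and C1, C3 and C4 lay inside the 100 nm range. The log2 fold change was -0.53 (SE 0.16, interval -0.87 to -0.18). Bace2, an aspartic protease, had -0.54 (SE 0.17), Apobec1, an RNA-editing deaminase, -0.45 (SE 0.14), Ptgs1, the constitutive cyclooxygenase, -0.42 (SE 0.15), and Il16, a lymphocyte chemoattractant, -0.35 (SE 0.12). Each was below the 100 nm batch mean in all 6 libraries of 1 µm. None of the 24 genes of smallest p had an adjusted p below 0.999.

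**Figure D2:**
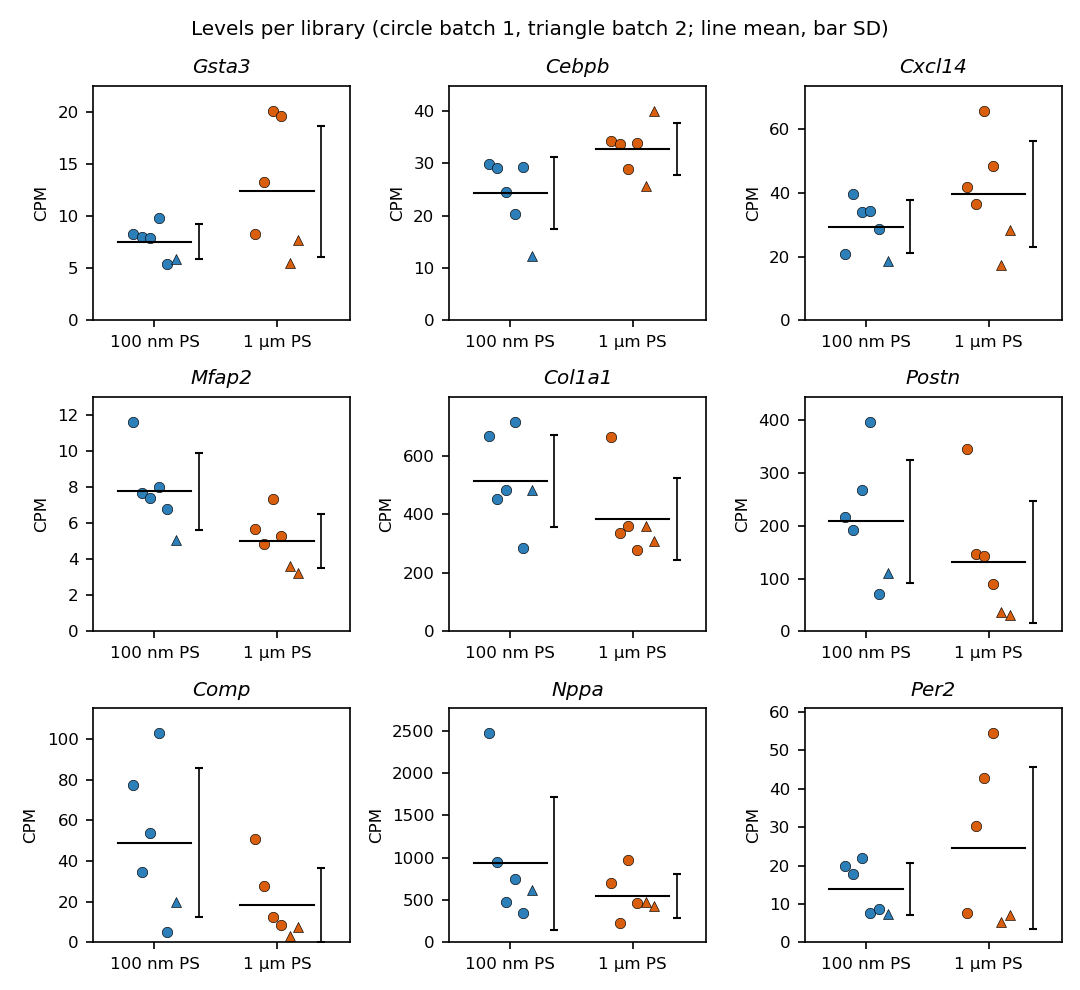
Level in CPM of 9 genes in each library of 100 nm PS (blue) and 1 µm PS (orange), circles for batch 1 and triangles for batch 2, with the mean (line) and SD (bar) of 6 libraries. The groups overlap in all 9 panels, and single libraries set the tops of Nppa (B1 at 2470), Postn (B4 at 396) and Gsta3 (C3 at 20.1).

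Matrix genes pointed one way. All 19 collagens and all 22 measured glycoproteins of activated fibroblasts had a log2 fold change below 0, against 46.2% of all genes, and 0 of the 41 passed. The medians were -0.23 for collagens and -0.42 for glycoproteins. For 39 of the 41 the 95% interval included 0.

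Col1a1, the main chain of type I collagen, ran from 286 to 714 CPM with 100 nm (median 481) and from 279 to 662 CPM with 1 µm (median 347), with a log2 fold change of -0.39 (SE 0.24, interval -0.90 to 0.12). Its partner Col3a1 was at 461 to 1220 CPM against 431 to 1150 CPM, a difference of -0.38 (SE 0.25, interval -0.91 to 0.16). The groups overlapped, and 2 libraries crossed: C1 (662 and 1150 CPM) sat beside the highest 100 nm libraries, B1 and B4, and B5 (286 and 461 CPM) sat with the other 1 µm libraries. Postn, periostin, the marker of the activated fibroblast, showed the same crossing. It was at 71.3 to 396 CPM with 100 nm (median 204) and 31.5 to 345 CPM with 1 µm (median 116), with C1 at 345 CPM and B5 at 71.3 CPM, and its difference was -0.66 (SE 0.43, interval -1.60 to 0.27). That difference was -1.08 without C1 and -0.34 without B6, the only 100 nm library of batch 2.

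Comp, a cartilage and tendon matrix protein that also appears in fibrotic heart, had the largest difference in size of the glycoproteins, -1.29 (SE 0.66, interval -2.76 to 0.17). It was at 5.23 to 103 CPM with 100 nm (median 44.1) against 3.33 to 50.9 CPM with 1 µm (median 10.4). Eln, elastin, was at 128 to 266 CPM (median 146) against 59.6 to 174 CPM (median 102), and was 1 of 2 glycoprotein genes with an unadjusted p under 0.05. C1 was the only 1 µm library of Eln inside the 100 nm range, and the difference was -0.63 (SE 0.25, interval -1.16 to -0.10). Other members were close to 0: Fbln2 had -0.06 (interval -0.28 to 0.17) and Thbs2 -0.06 (interval -0.40 to 0.27).

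The direction of these lists held when any 1 library was left out, but not their size. The collagen median was -0.48 without C1 and -0.12 without C4, and the glycoprotein median was -0.66 without C1 and -0.31 without B1. In batch 1 alone the medians were -0.21 and -0.34, with 18 of 19 and 20 of 22 members below 0. The enzymes that crosslink or degrade matrix and their inhibitors had a median of -0.14 with 5 of 21 above 0, and of -0.30 without C1 and -0.05 without B1. Timp1, a metalloprotease inhibitor, had -0.80 (SE 0.45, interval -1.77 to 0.18), and -0.48 without B1, its highest library, and -1.26 without C1. TGF-beta pathway genes were near 0 with a median of -0.03, and Tgfb1, the ligand itself, was at 50.6 to 79.5 CPM against 54.1 to 79.8 CPM, a difference of -0.03 (SE 0.10, interval -0.25 to 0.19).

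Markers of resident fibroblasts were highest and lowest in some of the same libraries as the matrix genes. Some of these markers are themselves matrix genes, such as Col15a1, so the lists are not independent. The mean log2 CPM of the markers after removal of the batch term was highest in C1 (7.05) and B1 (7.03). It was lowest in B5 (6.45) and C4 (6.5). B4, near the top for collagens (6.78), was at 6.84 for the markers, below B2 (6.86) and B6 (6.96). Of 15 such markers 4 were above 0 and the median was -0.11, and their summed level ran from 4010 to 6340 CPM with 100 nm and from 3840 to 5410 CPM with 1 µm. Tcf21, a transcription factor of cardiac fibroblasts, had -0.37 (SE 0.15). Smoc2, of the same list, went the other way with 0.23 (SE 0.11, interval 0.01 to 0.46). In batch 1 Smoc2 was higher in every 1 µm library than in any 100 nm library, but its difference in batch 2 was -0.14. In pieces of whole tissue, fewer cells of a type and less RNA per cell cannot be told apart. The part of the fibroblast content in the matrix differences was not tested.

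**Figure D3:**
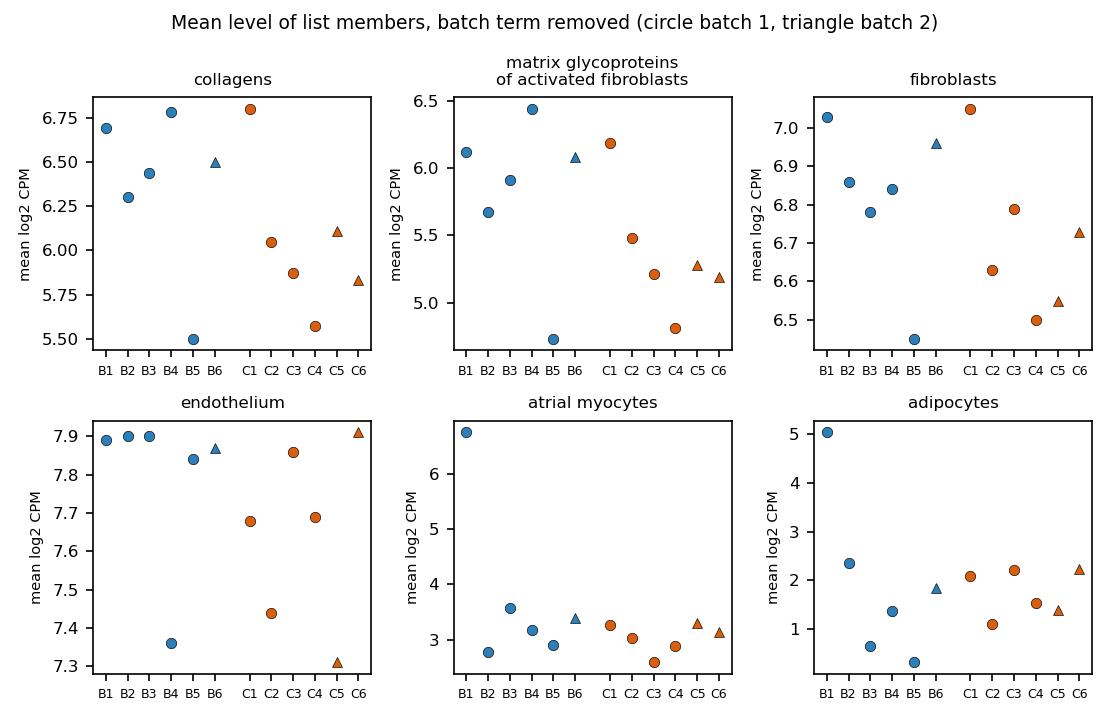
Mean log2 CPM of the members of 6 gene lists in each library with the batch term removed, blue for 100 nm PS and orange for 1 µm PS, circles for batch 1 and triangles for batch 2. For collagens B5 (5.50) is the lowest of the 12 libraries and C1 (6.80) the highest. For atrial myocytes and adipocytes B1 (6.75 and 5.04) stands apart.

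Heart muscle genes were unequally bounded. All 20 ventricular sarcomere genes had an interval inside a 2-fold change, but only 8 of 16 fetal and stretch-response genes did. The natriuretic peptide Nppa, a stress gene of the ventricle and a constitutive gene of the atria, ran from 346 to 2470 CPM with 100 nm (median 678) and from 230 to 967 CPM with 1 µm (median 474). Its difference was -0.68 (SE 0.49, interval -1.75 to 0.39), and -0.18 without B1, the library at 2470 CPM. Nppb, the ventricular peptide, had -0.19 (SE 0.34, interval -0.92 to 0.55), and Myh7, the fetal myosin heavy chain, 0.22 (SE 0.21, interval -0.23 to 0.68). Single libraries carried much of both values: Nppb had -0.69 without C1 and -0.05 without C2, and Myh7 0.07 without B6 and 0.35 without B4.

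Of 20 ventricular sarcomere genes 17 were above 0, with a median of 0.10. Ttn, titin, was at 1150 to 2090 CPM (median 1450) against 1400 to 3710 CPM (median 1600), and C5 held the top value. Its difference was 0.21 (SE 0.16, interval -0.15 to 0.56), and 0.08 without C5. Myh6, the adult myosin heavy chain, had 0.14 (SE 0.15, interval -0.18 to 0.47). Calcium-handling genes had a median of 0.05. Trdn, triadin, which anchors the calcium release complex, was at 77.2 to 138 CPM against 59.8 to 140 CPM, a difference of 0.01 (SE 0.11, interval -0.22 to 0.24).

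Energy metabolism leaned slightly the other way from the matrix. All 23 genes of glucose use were above 0 with a median of 0.10, 24 of 25 nuclear subunits of respiratory complexes II to V (0.05), 23 of 26 of complex I (0.05) and 25 of 31 genes of fatty acid oxidation (0.08). Of the 105 genes in these lists 0 passed, and 100 had an interval inside a 2-fold change. The fatty acid list counts Cpt1b (0.47), which cannot be read across the joined tables, as described under other observations. Gapdh, an enzyme of glycolysis, cannot be read across them either. Slc2a4, the insulin-responsive glucose transporter, was at 228 to 506 CPM (median 294) against 295 to 899 CPM (median 361), with C5 far above the rest, and its difference was 0.27 (SE 0.19, interval -0.13 to 0.67), and 0.13 without C5. Ndufa10, a complex I subunit, had 0.11 (SE 0.12, interval -0.14 to 0.36). These counts depended on single libraries. Without B1 the median of the glucose list was 0.06, with 20 of 23 above 0. Without C4 the complex I list had 12 of 26 above 0 and a median of 0, and without C6 14 of 26 and 0.01. The list of complexes II to V had 16 of 25 above 0 without C4. The fatty acid list had a median of 0.02 without B6, and in batch 1 alone 18 of 30 above 0 with a median of 0.02.

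**Figure D4:**
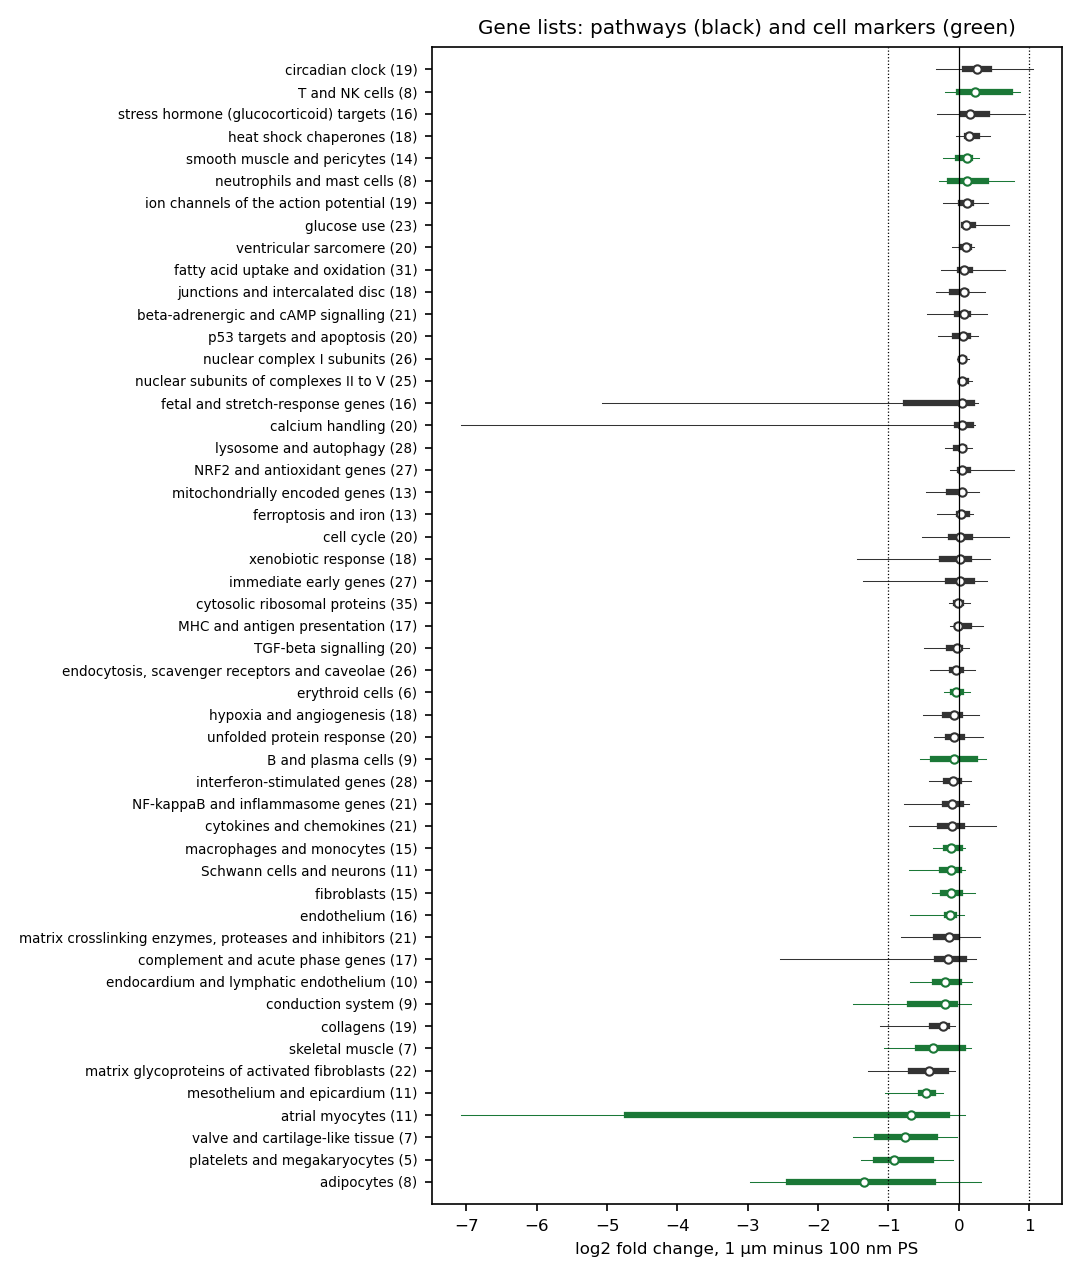
Log2 fold change (1 µm minus 100 nm PS) of the members of 51 gene lists, 34 of pathways (black) and 17 of cell markers (green), with the number of members tested in brackets. The circle is the median, the thick line the middle quartiles and the thin line the range, and 10 lists have a median farther than 0.2 from 0, the circadian clock at the top (0.26) and adipocytes at the bottom (-1.35).

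Heat shock chaperones were above 0 in 17 of 18 cases, with a median of 0.15. Dnajb1, a co-chaperone of HSP70, ran from 16.4 to 28.2 CPM (median 18.6) against 23 to 54.2 CPM (median 26.6). Leaving out B1, the groups of batch 1 did not overlap, and C6 at 54.2 CPM was the highest of all. Its difference was 0.45 (SE 0.17, interval 0.08 to 0.82). The median of the list was 0.08 without B6 and 0.23 without C3, and in batch 1 alone 11 of 18 were above 0. Genes of the unfolded protein response had a median of -0.07, but Herpud1, a component of endoplasmic reticulum-associated degradation, was at 121 to 145 CPM (median 131) against 108 to 197 CPM (median 181). All 1 µm libraries other than C1 lay above the 100 nm range, and the difference was 0.34 (SE 0.13, interval 0.07 to 0.61).

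Genes of endocytosis, lysosomes and autophagy did not separate the sizes. The 26 genes of endocytosis, scavenger receptors and caveolae had a median of -0.04 with 10 above 0, and 28 genes of lysosome and autophagy 0.04 with 18 above 0. Cav1, the caveolin of endothelium, had -0.05 (interval -0.41 to 0.31), Cltc, the clathrin heavy chain, 0.05 (interval -0.22 to 0.32), and Msr1, a scavenger receptor of macrophages, -0.27 (interval -0.72 to 0.18). Sqstm1, an autophagy receptor, was at 301 to 482 CPM (median 323) against 356 to 628 CPM (median 388), a difference of 0.19 (SE 0.11, interval -0.04 to 0.42). Cd68, the macrophage lysosomal protein, was at 11.9 to 21.3 CPM (median 15.9) against 12.5 to 18.8 CPM (median 16.1), a difference of 0.01 (SE 0.14, interval -0.29 to 0.30).

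Most immune lists had medians within 0.15 of 0. Cytokines and chemokines had a median of -0.10, interferon-stimulated genes -0.08, NF-kappaB and inflammasome genes -0.09, and antigen presentation -0.01. Macrophage and monocyte markers summed to 384 to 666 CPM with 100 nm and 373 to 582 CPM with 1 µm, with a median difference of -0.11. By batch that median had opposite signs, -0.18 in batch 1 and 0.18 in batch 2. T and NK cell markers were scarce, at 3.49 to 5.51 CPM in sum against 2.82 to 6.61 CPM, and the median of the 8 measured was 0.23, and 0.10 without C2. Among them Cd4, the co-receptor of helper T cells, was at 0.463 to 1.94 CPM (median 0.913) against 1.19 to 2.24 CPM (median 1.58). In batch 1 every 1 µm library lay above every 100 nm library, but in batch 2 C5 lay below B6, and the difference was 0.71 (SE 0.31, interval 0.05 to 1.36). Of the 8 T and NK markers 6 were above 0, and 1 had an interval inside a 2-fold change. Trac had 0.04 (interval -0.61 to 0.69) and Cd3e -0.20 (interval -1.71 to 1.31). Complement and acute phase genes had a median of -0.15, and of 0.12 without B1. Over all 857 distinct genes of the 51 lists 0 passed, 25 (2.92%) had an unadjusted p under 0.05 against 1.95% of all genes, and of the 662 at 10 CPM or more 92.4% had an interval inside a 2-fold change.

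The list with the largest median above 0 was the circadian clock, at 0.26 with 15 of 19 genes above 0. In this oscillator ARNTL (BMAL1) and CLOCK bind E-boxes and switch on Per, Cry, Ciart and the output factors Dbp, Tef and Hlf, while Arntl itself peaks in antiphase. Promoter sequences are shown for the 5 list members that hold the E-box CACGTG in the 250 bases before their start (RefSeq, GRCm38.p6). They are printed because this list had the largest median above 0. They run 5′ to 3′ on the gene's strand with the E-box in capitals.
Ciart, chr3:95882229-95882478, minus strand: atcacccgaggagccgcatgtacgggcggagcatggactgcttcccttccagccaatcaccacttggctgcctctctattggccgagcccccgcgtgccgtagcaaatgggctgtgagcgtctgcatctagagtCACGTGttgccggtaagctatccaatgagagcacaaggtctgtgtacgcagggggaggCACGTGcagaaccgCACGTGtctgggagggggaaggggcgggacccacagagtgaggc
Per1, chr11:69098699-69098948, plus strand: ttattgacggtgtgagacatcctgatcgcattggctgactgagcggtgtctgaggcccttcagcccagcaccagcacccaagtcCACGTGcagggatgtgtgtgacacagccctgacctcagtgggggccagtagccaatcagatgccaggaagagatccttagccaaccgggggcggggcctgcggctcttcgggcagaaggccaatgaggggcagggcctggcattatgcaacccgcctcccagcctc
Cry1, chr10:85185055-85185304, minus strand: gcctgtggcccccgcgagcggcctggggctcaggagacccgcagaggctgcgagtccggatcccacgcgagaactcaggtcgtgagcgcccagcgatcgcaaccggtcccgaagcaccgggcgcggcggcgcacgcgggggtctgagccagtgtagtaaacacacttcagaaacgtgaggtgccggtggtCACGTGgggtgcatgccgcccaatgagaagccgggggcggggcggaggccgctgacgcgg
Tef, chr15:81802423-81802672, plus strand: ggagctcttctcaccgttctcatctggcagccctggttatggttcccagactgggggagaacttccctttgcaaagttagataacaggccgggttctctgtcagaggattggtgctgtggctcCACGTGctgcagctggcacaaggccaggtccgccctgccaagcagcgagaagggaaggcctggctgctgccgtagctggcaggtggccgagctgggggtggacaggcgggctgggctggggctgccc
Bhlhe41, chr6:145865421-145865670, minus strand: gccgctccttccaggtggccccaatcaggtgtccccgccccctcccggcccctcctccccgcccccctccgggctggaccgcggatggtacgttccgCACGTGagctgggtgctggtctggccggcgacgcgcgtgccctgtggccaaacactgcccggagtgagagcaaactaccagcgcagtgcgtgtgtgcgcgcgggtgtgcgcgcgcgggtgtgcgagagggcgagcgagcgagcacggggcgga
Windows of 16 of the 20 list genes were found, and 5 of the 16 held the motif, which reads the same on both strands. Counted the same way, 6.86% of the 27025 symbols in the table held it in at least 1 window. By window the list had 6 of 21, Tef holding it in both of its windows, of which 1 is shown, against 6.02% of all 32851 windows. Ciart, a repressor of the clock, has 3 copies, at positions 135, 193 and 207 counted from the left. Dbp and Hlf held no match, and no window of Per2 was found. The list was made of known clock genes, several of them named above as E-box targets. Its share of matches therefore says nothing about these libraries. A match is a description of the letters and not a measured binding site.

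Per2, a repressor of the oscillator, was at 7.34 to 22.0 CPM with 100 nm (median 13.3) and at 5.36 to 54.5 CPM with 1 µm (median 18.9). Within batch 1 the libraries C2, C3 and C4 had 30.2, 42.8 and 54.5 CPM, B1, B2 and B3 had 20, 17.9 and 22.0 CPM, and B4, B5 and C1 had 7.71, 8.65 and 7.54 CPM. Arntl lay in the reverse order, with 5.12, 1.70 and 1.25 CPM in C2 to C4 and 13.8, 13.9 and 20.9 CPM in B4, B5 and C1. Per2 and Arntl thus put C1 with B4 and B5, and not with the other libraries of its group in batch 1.

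Ciart followed Per2, with 17.6, 18.0 and 20.6 CPM in C2 to C4 and 2.01 CPM in C1. The groups overlapped for each of these genes. Its difference was 1.06 (SE 0.57, interval -0.19 to 2.30), that of Per2 0.86 (SE 0.46, interval -0.16 to 1.87) and that of Arntl -0.32 (SE 0.60, interval -1.64 to 1.00). Arntl had -1.32 without C1 and -0.05 without C4, and Per2 0.56 without C4. Cry1, a repressor with an E-box in the window above, was at 6.45 to 10.2 CPM against 6.22 to 15.4 CPM, a difference of 0.51 (SE 0.20, interval 0.09 to 0.93). C1 was the lowest of the 12 libraries for Cry1, and the 5 other libraries of 1 µm were above the whole 100 nm range.

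In batch 2 the libraries B6, C5 and C6 had 7.34, 5.36 and 7.03 CPM of Per2 and 24.9, 25.9 and 25.3 CPM of Arntl, so they did not show the difference seen among the libraries of batch 1. Without C1 the median of the clock list was 0.45. Wee1, a kinase that holds back mitosis and a clock-controlled gene, also set C1 apart, with 15.3, 15.2 and 16.8 CPM in C2 to C4 and 5.49 CPM in C1. Its difference was 0.66 (SE 0.24, interval 0.15 to 1.16). The 100 nm libraries did not follow Per2, as B2 at 6.04 CPM lay below B4 and B5 at 7.39 and 7.23 CPM. In batch 2 Wee1 was at 6.75 CPM in B6 and at 11.2 and 8.68 CPM in C5 and C6. The mice were kept under a 12-hour light and dark cycle, and the labels give no hour of collection, so the part of the time of day in these values was not tested.

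**Figure D5:**
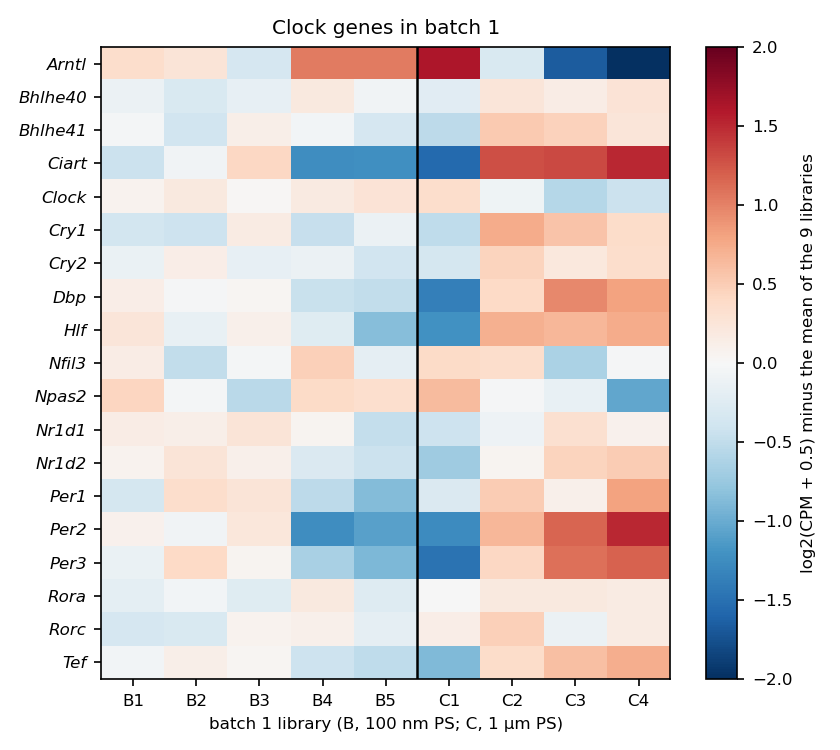
Level of 19 clock genes in the 9 libraries of batch 1 as log2(CPM + 0.5) minus the mean of the 9 libraries, red for higher and blue for lower. C2, C3 and C4 are red for Per2 (30.2 to 54.5 CPM) and C3 and C4 deep blue for Arntl (1.70 and 1.25 CPM), while B4, B5 and C1 show the reverse.

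One library held RNA of other heart tissue. Atrial myosin light chain Myl4 was at 602 CPM in B1 and at 1.81 to 6.28 CPM in the 11 other libraries. Sln, sarcolipin, an atrial calcium pump regulator, was at 185 CPM in B1 and at 0 to 0.735 CPM elsewhere. The fitted difference of Sln was -7.08 (SE 2.80), and 0.04 without B1.

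Adipoq, adiponectin from fat cells, was at 9.17 CPM in B1 and at 0.0524 to 1.37 CPM in the others. The adipocyte list had a median of -1.35 with B1 and 0.16 without it, and the atrial list -0.68 and -0.12. Markers of mesothelium and epicardium had a median of -0.46 with 0 of 11 above 0, which was -0.09 with 3 of 11 above 0 without B1 and -0.92 without C4. Those of endothelium had a median of -0.13 with 2 of 16 above 0, and of -0.05 without C5. Plvap, a marker of fenestrated and endocardial endothelium, was at 17.5 to 99.5 CPM (median 50.8) against 23.7 to 42.8 CPM (median 32.3), a difference of -0.69 (SE 0.30, interval -1.35 to -0.03), with B1 the highest library.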

How the data were processed

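RNA from hearts was sequenced as poly(A) libraries by 2 providers, per the labels. The deposited batch 1 table gives raw counts per gene and the deposited batch 2 table estimated counts, of which 19.6% of nonzero values are not whole, so the authors' estimates were rounded. DESeq2, featureCounts 1.5.0-p3, HISAT2 2.0.5, fastp and StringTie 1.3.3b are listed with GRCm39 in the submitters' processing notes, without roles, and what counted batch 2 is not stated there. The tables were joined on 35560 genes, covering 99.3% to 99.5% of counts per library (batch 1) and 93.1% to 95.8% (batch 2). Entries of batch 1 without a gene name (0.16% to 0.22% of counts) were left out.

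Counts were fitted in R 4.3.3 with edgeR 4.0.16 (TMM, filterByExpr minimum count 10, robust quasi-likelihood, batch and size as terms, 9 residual degrees of freedom). An adjusted p (Benjamini-Hochberg, all genes tested) under 0.05 counts as passed. SE is the log2 fold change over the square root of F, and the 95% interval uses the gene's total degrees of freedom. P-values set the difference between sizes against the spread between these libraries. The script was checked on simulated data. No pair of libraries among 17 looked like a duplicate.

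The libraries, gene lists, tests and genes to name were chosen with earlier results of these data known. Named genes are the 12 of smallest p in each direction at 5 CPM or more, the smallest-p member of each list, and Nppa, Nppb, Myh7, Col1a1, Col3a1, Postn, Tgfb1, Trdn, Hmox1 and Cd68. Per2, Ciart, Arntl, Fos, Egr1, Myl4, Adipoq and list members given as examples were chosen after their values were seen. Alternatives were RLE and upper-quartile factors, other filters, DESeq2 1.42.0, limma 3.58.1 voom, no batch term, batch 1 alone, all 18 libraries, a replicate block, 1 surrogate variable (sva 3.50.0), an adjusted p under 0.1 and removal of each library. Removal of B1 and B5 together was chosen after seeing the data.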

Additional observations from a re-analysis of the deposited data

Results flagged for a closer look

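The levels of 86 named genes, the mean levels of 51 lists and 9 library measures were each checked for 1 library far from the others of its group of 6, on a scale with the batch term removed. Of 292 such groups of values 26 held one, where chance alone gives about 1 in 20, and many of them share a library.

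B1 was the library apart in 6 of them. It was high for Sln (185 CPM, the other 100 nm libraries of batch 1 at 0 to 0.618), Mybphl (74.5 CPM, others 0.0491 to 0.772), Myl4 (602 CPM, others 2.78 to 6.28) and Dnajb1 (28.2 CPM, others 16.4 to 19.1). It was also high for the mean log2 CPM of the atrial list (6.75) and of the fetal and stretch-response list (7.34), which hold atrial genes in common.

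B4 was low for Maff (9.39 CPM) and for the endothelial list (7.36 against 7.84 to 7.90), and high for C3ar1 (17.8 CPM), Dsp (690 CPM) and the first principal component after batch removal (30.9). B5 was low for Comp (5.23 CPM against 34.6 to 103), Tmem108 (2.35 CPM), the valve list (1.09), the mitochondrially encoded genes (10.9) and the second component (-48.5). B2 was low for Aifm2 (21.9 CPM).

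With 1 µm, C1 was high for Postn (345 CPM against 89.3 to 146), the matrix crosslinking list (5.59) and the unfolded protein response list (5.66). C3 was low for Lrrn4, a mesothelial gene (0.213 CPM against 4.04 to 5.62), and for the third component (-40). C2 was high for Selp (1.92 CPM), C4 low for Erf (22.2 CPM), C5 low for Bace2 (10.6 CPM) and C6 high for Cebpb (40 CPM).

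The difference between sizes was unequal in the 2 batches for 4 pseudogenes by edgeR's batch-by-size term. The term was -10.57 on the log2 scale for Eif4a-ps4 (adjusted p = 2.15e-06), -10.39 for Gm10052 (1.17e-05), -7.91 for Gm12918 (0.0209) and -7.79 for Gm7367 (0.0441). All 4 were at 0 in C5 and C6 and between 1.11 and 9.15 CPM in B6, so each term rests on 2 libraries at 0 and 1 other, and limma voom called 0. Pseudogenes share reads with their parent genes, and how the authors counted such reads is not stated.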

How the results depend on the processing

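The count of genes that passed was 0 in the main analysis and in 24 of 25 alternatives. Without a filter on low counts it was 1. The fit with a replicate block called 0, with 543 genes at an unadjusted p under 0.05. Same-numbered libraries did not deviate together (residual correlations from -0.34 to 0.05, 0 of 6 closest to their own number), so the numbers were not taken as pairs. Leaving out each library called 0 each time. The share of genes bounded within 2-fold was 84.6%, 79.1% to 81.9% without single libraries, 85.9% in batch 1 alone and 68.2% with all 18 libraries. The batch-by-size count of 4 was 0 with voom. Genes without overlap in batch 1 numbered 130, and 94 without normalization factors.

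For 86 named genes 2016 of 2050 alternative values kept their sign, and 76 genes never changed it. Without a batch term the log2 fold change changed sign for Cycs (-0.05), Nppb (0.05), Tgfb1 (0.01), Trdn (-0.09), Arntl (0.11) and Fos (0.20). In batch 1 alone it did so for Slc4a1 (0.11) and Tgfb1 (0.03), with the replicate block for Tgfb1 (0.03), Cd68 (-0.06) and Fos (0.13), with 1 surrogate variable for Tgfb1 (0.03), and with all 18 libraries for Trdn (-0.01) and Arntl (0.01). Cd68 was -0.01 with upper-quartile factors and with voom. Without B1 and B5 together Sln was 0.35, Trdn -0.01, Fos 0.86 and Adipoq 0.33. Leaving out single libraries gave ranges of -2.66 to 0.59 for Adipoq, -0.07 to 0.10 for Cd68, -0.83 to 0.11 for Slc4a1, -8.36 to 0.04 for Sln, -0.07 to 0.03 for Tgfb1 and -0.05 to 0.06 for Trdn. In batch 1 alone the difference in library shares changed sign for mitochondrial (0.916), haemoglobin (0.00725) and the 10 most abundant genes (0.819 percentage points). Apart from single-library effects such as B1 for Sln and Adipoq, the cause was not tested. List medians moved by over 1 SD of the list's mean level in 7 of 816 cases. No scaling moved the median of all genes by over 0.01.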

Other observations

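Immediate early genes, which respond within minutes to hormones, stretch or handling, varied among hearts of both groups. Fos was at 19.9 CPM in B1, 18.1 CPM in B5 and 46.6 CPM in C6, and at 1.41 to 6.87 CPM in the 9 other libraries. Egr1 was highest in the same 3 libraries, at 56.4, 85.5 and 101 CPM. The 27 genes of this list had a median log2 fold change of 0.02 with 14 above 0, and of 0.17 with 23 above 0 without B1 and B5 together, a choice made after seeing the data. The difference of Egr1 was -0.84 (SE 0.55, interval -2.05 to 0.37), -0.50 without B5 and -1.22 without C6. The inducible chaperone Hspa1a was also highest in C6 (33.7 CPM) and B1 (12.1 CPM), and at 3.09 to 7.79 CPM elsewhere.

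Some abundant genes cannot be read across the joined tables. Gapdh was at 203, 8.45, 395, 5.19 and 119 CPM in B1 to B5 and at 6.42, 4.79, 668 and 528 CPM in C1 to C4, but at 4750 to 7170 CPM in batch 2, while Pgk1, the next enzyme of glycolysis, was at 275 to 752 CPM in all 12 libraries. Cpt1b, the muscle gate of fatty acid entry into mitochondria, was at 0.148 to 0.686 CPM in batch 1 and at 661 to 949 CPM in batch 2. Tagln, of the smooth muscle and pericyte list, was at 0 to 0.394 CPM in batch 1 and at 67.7 to 109 CPM in batch 2. Without the filter on low counts 1 gene passed, Ccl21d, a lymphoid chemokine gene with near-identical copies, with 268 counts in B6 and 0 to 3 in each other library.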
